A study of Rattus norvegicus with 10 samples.

Results

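The mammary gland was compared between rats that ate either of the soy-component diets and rats that ate the reference diet. The 7 arrays whose titles start with SPI or with GEN (also written Gen) were taken as 1 group, and the 3 arrays whose titles start with CAS as the other, so that all 10 arrays of the series entered the comparison. The comparison asks what both soy-component diets share against CAS. All animals were female Sprague-Dawley rats on purified diets, studied at postnatal day 50. The CAS group held replicates 1, 2 and 3, the SPI group replicates 2, 3, 4 and 5, and the GEN group replicates 1, 3 and 5. GEN is genistein. The labels leave CAS and SPI as abbreviations, which are casein and soy protein isolate from knowledge of the study. No amount of genistein or isoflavone in a diet was used here.

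Genistein is an isoflavone of soybean that binds estrogen receptors, and soy protein isolate carries isoflavones along with the protein. The mammary gland of a young adult rat is a tree of ducts and lobules, with luminal and basal epithelial cells, set in a pad of fat, fibroblasts, vessels, nerves and immune cells. Estrogen acts in it through receptors of some luminal and stromal cells, and prolactin acts through Stat5 on the genes of milk.

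Each array carried RNA of mammary gland number 4, pooled from 2 animals according to the design text and to the labels of 9 arrays, whereas the label of CAS 3 speaks of 7 animals. Each pool gave 3 labelled targets made side by side, and no label ties an array to a pool, so the p-values may measure technical spread in part. The source is labelled epithelial cells, the labelling protocol names the gland, and the design text adds colon. The casein Csn1s1 had mean signals of 15028 on CAS, 18017 on SPI and 24588 on GEN, and adipocyte, fibroblast, endothelial and muscle genes were measured on every array, so genes of cells other than epithelium were present. Of 13 colon genes, 11 were on the array and 3 were bright enough to be tested. The defining colon genes gave mixed signals: Cdx1 was dim, at 132, 121 and 127 on CAS, SPI and GEN, Cdx2 stood at 444, 366 and 421, and Vil1 was not analysed here. Median signals of the arrays ran from 222.8 to 256.7. The ratio of the 3' to the 5' beta-actin signal, which is high where RNA is shortened, was 4.06 to 5.04 on CAS, 2.94 to 7.77 on SPI and 2.83 to 5.15 on GEN, with SPI 4 the highest. Skeletal muscle genes stood apart on CAS 1, with a mean log2 signal of 9.55 over 8 genes against 8.0 to 8.5 on the other 9 arrays.

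No probe set differed between the soy-component diets and CAS after correction. Among genes whose arrays did not overlap, the largest differences on the higher side were those of the lipid-carrying protein Apod, the transferrin receptor Tfrc, the desaturase Fads2 and the myelin gene Mbp, the last 2 with a narrow gap between the groups. On the lower side they were those of the cadherin Cdh22, the leukocyte sialoprotein Spn and the collagen-modifying enzyme P3h3. Over 9520 probe sets, limma with Benjamini-Hochberg adjustment called 0 (0%), with 0.0671 as the lowest adjusted p. The unadjusted p was under 0.05 for 403 probe sets (4.23%), with 138 (1.45%) higher and 265 (2.78%) lower on the soy-component diets. That balance turned to 230 higher and 155 lower when each array was centred on its median. It was under 0.01 for 81 (0.851%). The 7 soy-component arrays lay wholly above or wholly below the 3 CAS arrays for 113 probe sets (1.19%), of which 42 (0.441%) were higher and 71 (0.746%) lower. Both conditions held for 41 probe sets (0.431%), 15 higher (0.158%) and 26 lower (0.273%). They covered 13 higher and 23 lower genes with a single symbol, and the 12 with the greatest differences in each direction are described next. These values chose the genes, so the figures that follow are a description of 24 genes that did not pass.

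**Figure D1:**
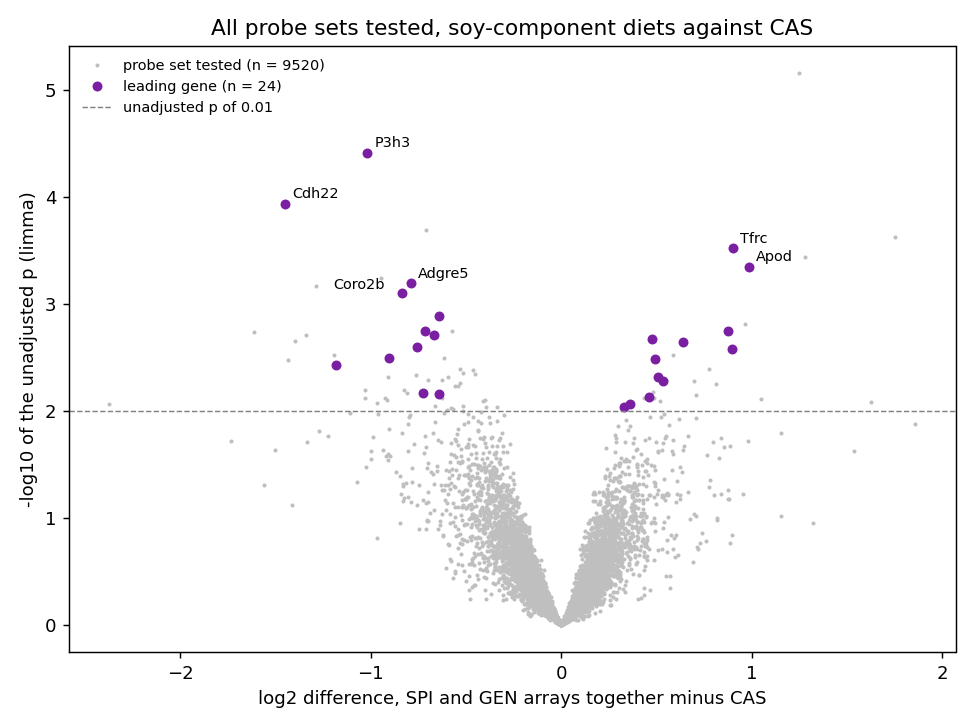
Each grey point is 1 of 9520 probe sets, with the log2 difference of the 7 soy-component arrays from the 3 CAS arrays on the horizontal axis and minus log10 of the unadjusted limma p on the vertical axis. The 24 leading genes are in purple, above the dashed line at an unadjusted p of 0.01, and P3h3 and Cdh22 stand highest among them on the left and Tfrc and Apod on the right. The grey point above all others is the unnamed probe set with an adjusted p of 0.0671.

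Tfrc, the receptor through which cells take up transferrin-bound iron, had signals of 1144, 1051 and 884 on the CAS arrays. It had 2111, 1964, 1285 and 1647 on SPI 2, 3, 4 and 5, and 1985, 1919 and 2762 on GEN 1, 3 and 5. All 7 soy-component arrays lay above all 3 CAS arrays, and SPI 4 was the nearest to them. The log2 difference was 0.90 ± 0.19 (SE), or 1.87-fold, with an adjusted p of 0.479. A second, dimmer probe set of Tfrc stood at 0.45. Of 10 tested genes of iron uptake and storage, 4 were higher and 6 lower, with a median of -0.03 (0.10 without CAS 1 and -0.09 without CAS 3) beside -0.01 over the 7119 genes tested. The iron reductase Steap3 was among the lower ones at -0.52 ± 0.21, and the ferroxidase Heph stood at -0.29 ± 0.19, and at -0.19 without SPI 4. The hormone Hamp stood at 0.30 ± 0.28, and at 0.024 without CAS 3.

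Apod, an apolipoprotein that binds small lipids, had signals of 263, 214 and 174 on CAS. On SPI it had 393, 337, 331 and 351, and on GEN 510, 495 and 632. The 3 diets formed 3 separate steps, with CAS lowest and GEN highest. The log2 difference of the pooled diets was 0.99 ± 0.21 (SE), or 1.98-fold, with an adjusted p of 0.535.

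Fads2, the desaturase that starts the synthesis of long polyunsaturated fatty acids, had signals of 160, 143 and 125 on CAS. It had 273, 208, 163 and 280 on SPI and 337, 254 and 405 on GEN. The lowest soy-component array, SPI 4, was nearly level with CAS 1, and the GEN arrays were mostly above the SPI arrays. The difference was 0.90 ± 0.24, and the CAS signals lie under 162, the lowest geometric mean signal tested. Mbp, a protein of myelin, had 367, 277 and 180 on CAS, 384, 451, 406 and 487 on SPI, and 632, 423 and 670 on GEN. CAS 1 came close to the lowest soy-component array, and the groups did not overlap. The difference was 0.87 ± 0.23 (adjusted p = 0.937), while a dim second probe set of Mbp stood at 0.03.

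The other 8 leading genes of the higher side differed by 0.33 to 0.64. Rfc3, a subunit of the clamp loader of DNA replication, had 196, 188 and 207 on CAS against 225 to 400 on SPI and 282 to 326 on GEN, a difference of 0.64 ± 0.17. The CAS arrays lay within a narrow band below all others. Hspb1, a small heat shock protein known as an estrogen-responsive gene, had 3397, 4065 and 3380 on CAS. It had 4815, 5298, 6963 and 4789 on SPI and 4980, 4146 and 4218 on GEN, a difference of 0.46 ± 0.15. The highest value was that of SPI 4, the array with the highest actin ratio, and GEN 3 and GEN 5 were only slightly above CAS 2. Mccc2, a subunit of a biotin-dependent enzyme of leucine breakdown, had 304, 283 and 278 on CAS against 358 to 422 on SPI and 390 to 449 on GEN, and differed by 0.48 ± 0.13. Net1, a guanine nucleotide exchange factor, had 1076, 1144 and 947 on CAS against 1409 to 1890 on SPI and 1219 to 1549 on GEN (0.50 ± 0.14). Prepl, an oligopeptidase-like protein, differed by 0.54 ± 0.16, Slc22a23, a solute carrier, by 0.51 ± 0.15, and Dynlrb1, a light chain of dynein, by 0.33 ± 0.11. C19h19orf53 stood at 0.36 ± 0.12 by its brightest probe set, and at -0.02 and 0.06 by its other tested probe sets.

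On the lower side, P3h3, a prolyl 3-hydroxylase that modifies collagen, had signals of 710, 490 and 450 on CAS. It had 294, 288, 243 and 223 on SPI and 318, 237 and 274 on GEN. The soy-component arrays were close together whatever the diet, and all lay well under the lowest CAS array. The log2 difference was -1.02 ± 0.17 (SE), and the adjusted p of 0.185 was the smallest of any gene with a single symbol. It stayed between -1.15 and -0.82 over the alternatives, with adjusted p from 0.130 to 0.798. Cdh22, a cadherin of cell adhesion, had 842, 461 and 476 on CAS, 210, 113, 210 and 267 on SPI, and 288, 246 and 181 on GEN. CAS 1 was the highest by far, and the other CAS arrays were still well above all soy-component arrays. The difference was -1.45 ± 0.27 (adjusted p = 0.370), and a dim second probe set stood at -0.60.

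Lox, Col5a1 and Fbn1 were among the leading lower genes through their dimmer probe sets only, and at their brightest probe sets the arrays overlapped. Lox, the enzyme that cross-links collagen and elastin, had 929, 581 and 563 on CAS against 209 to 498 on SPI and 310 to 371 on GEN at that probe set, a difference of -0.90 ± 0.25. Its brightest probe set stood at -0.41, and at -0.09 without CAS 1. Col5a1, a chain of type V collagen, had 1022, 634 and 716 on CAS against 333 to 613 on SPI and 444 to 585 on GEN, a difference of -0.64 ± 0.20. By the brightest probe set it was -0.54, and -0.29 without CAS 1. Fbn1, the fibrillin of elastic microfibrils, had 5088, 3259 and 3047 on CAS against 2249 to 2710 on SPI and 2035 to 2507 on GEN (-0.64 ± 0.16). By its brightest probe set it was -0.26, and -0.16 without CAS 1. CAS 1, the array with the muscle signal, was the highest array at each of these 3 dimmer probe sets. Over the alternatives, leaving out CAS 1 included, the dimmer probe sets stayed between -1.05 and -0.67 for Lox, between -0.79 and -0.44 for Col5a1 and between -0.78 and -0.41 for Fbn1.

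Spn, the sialoprotein that coats leukocytes, had 266, 218 and 706 on CAS, 201, 201, 130 and 188 on SPI, and 124, 162 and 94.1 on GEN. CAS 3 stood far above the other arrays, and the difference of -1.18 ± 0.34 became -0.67 without it. On the soy-component arrays the geometric mean of Spn lay under 162, the lowest tested, so the CAS arrays carried it past the filter. Adgre5, an adhesion receptor of leukocytes, had 580, 347 and 548 on CAS, 319, 257, 236 and 336 on SPI, and 291, 258 and 259 on GEN. CAS 2 lay just above SPI 5, and the difference was -0.79 ± 0.18. Hdc, which makes histamine and is a marker of mast cells, had 368, 245 and 237 on CAS, 153, 155, 141 and 138 on SPI, and 213, 201 and 163 on GEN (-0.76 ± 0.21). The SPI arrays were the lowest and nearly equal. Cd55, which protects cells from complement, had 1266, 790 and 704 on CAS against 540 to 662 on SPI and 379 to 661 on GEN (-0.72 ± 0.23), and stood at -0.47 without CAS 1.

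The remaining leading lower genes had other roles. Coro2b, a coronin that binds actin, had 567, 332 and 402 on CAS against 187 to 255 on SPI and 213 to 318 on GEN (-0.84 ± 0.19). Elapor1, a regulator of autophagy, had 287, 307 and 326 on CAS against 147 to 205 on SPI and 168 to 243 on GEN (-0.72 ± 0.18). The CAS arrays of Elapor1 were close to each other. Cpq, a carboxypeptidase, had 669, 660 and 490 on CAS against 332 to 387 on SPI and 290 to 484 on GEN (-0.67 ± 0.18), where GEN 5 came close to CAS 3.

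**Figure D2:**
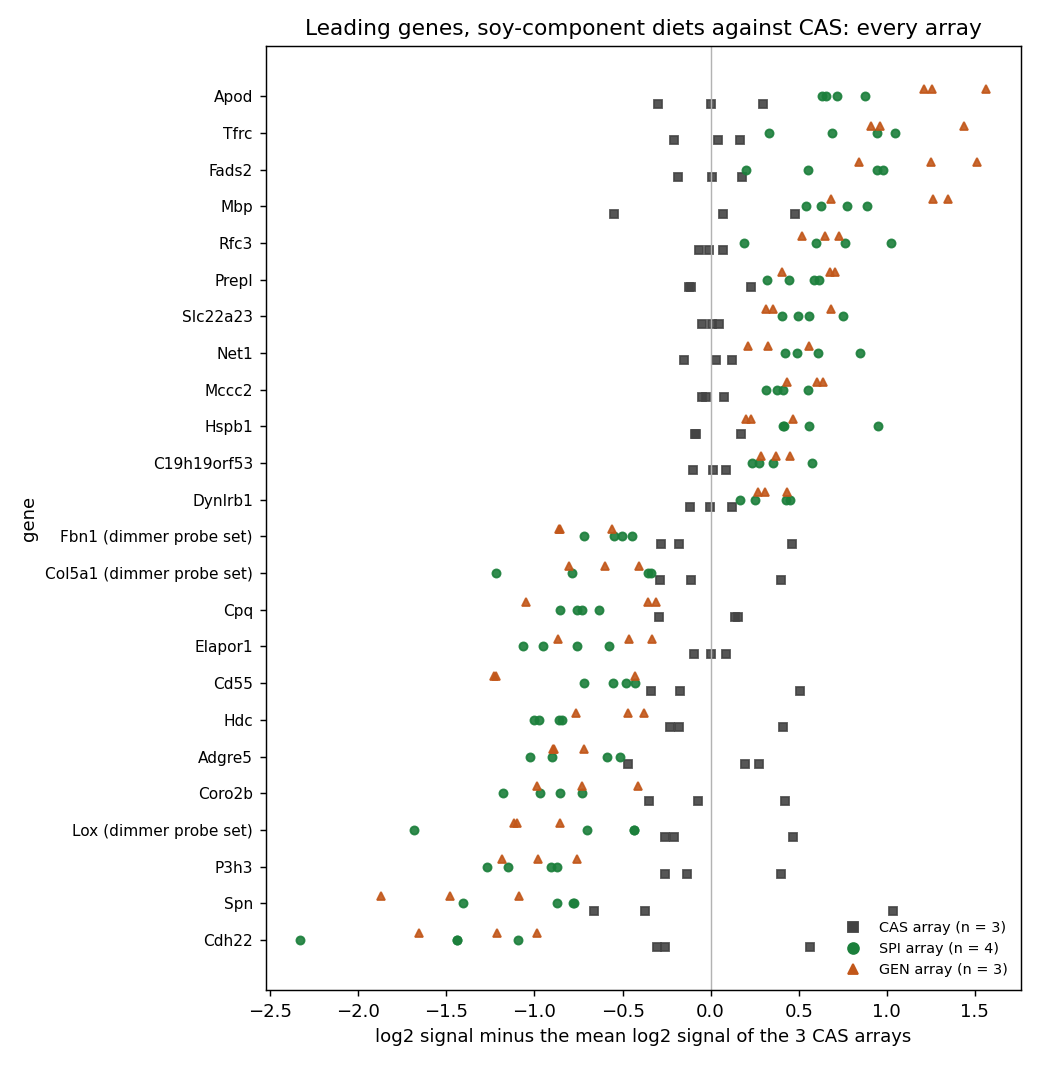
For each of the 24 leading genes, every array's log2 signal is plotted as its distance from the mean log2 signal of the 3 CAS arrays (squares CAS, n = 3, circles SPI, n = 4, triangles GEN, n = 3). The CAS squares and the soy-component symbols do not overlap in any row, since this was part of the rule that chose the genes, and the gap is narrow for Fads2, Mbp and Adgre5 among others.

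The probe set with the smallest p has no gene symbol in the annotation used here and was noted after its values were seen. Its signals were 504, 537 and 326 on CAS, 836, 1012, 1026 and 1088 on SPI, and 1174, 975 and 1385 on GEN. All soy-component arrays lay above all CAS arrays, with a wide gap. The log2 difference was 1.25 ± 0.18, with an adjusted p of 0.0671 in limma, and 0.0537 to 0.389 over the alternatives.

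The sequences before the transcription start are shown for the pair of genes with the smallest p in each direction, Tfrc, Apod, P3h3 and Cdh22, because estrogen receptors can act on such regions through known motifs. The windows are the 250 bases before the start in RefSeq on the GRCr8 build, 5′ to 3′ on the strand of the gene. They lie at chr11:81690319-81690568 (Tfrc, minus strand), chr11:82935970-82936219 (Apod, plus strand), chr4:159348005-159348254 (P3h3, minus strand) and chr3:174389893-174390142 (Cdh22, minus strand). Capitals mark GGTCA, the core of the estrogen response element, or its reverse complement TGACC, and the TATA box TATAAA on the strand of the gene.
Tfrc: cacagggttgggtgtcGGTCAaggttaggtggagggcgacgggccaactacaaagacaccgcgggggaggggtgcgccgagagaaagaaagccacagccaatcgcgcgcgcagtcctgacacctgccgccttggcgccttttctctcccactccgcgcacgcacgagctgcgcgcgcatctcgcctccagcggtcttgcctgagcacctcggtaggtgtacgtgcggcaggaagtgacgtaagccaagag
Apod: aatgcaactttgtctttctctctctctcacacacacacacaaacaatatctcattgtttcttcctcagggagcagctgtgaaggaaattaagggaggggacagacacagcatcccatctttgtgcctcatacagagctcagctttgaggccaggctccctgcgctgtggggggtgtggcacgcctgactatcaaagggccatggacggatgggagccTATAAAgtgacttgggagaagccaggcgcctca
P3h3: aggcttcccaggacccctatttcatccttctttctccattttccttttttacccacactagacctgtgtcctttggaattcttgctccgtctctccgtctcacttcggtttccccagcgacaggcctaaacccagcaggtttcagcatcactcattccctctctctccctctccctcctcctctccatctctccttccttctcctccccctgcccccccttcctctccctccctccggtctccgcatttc
Cdh22: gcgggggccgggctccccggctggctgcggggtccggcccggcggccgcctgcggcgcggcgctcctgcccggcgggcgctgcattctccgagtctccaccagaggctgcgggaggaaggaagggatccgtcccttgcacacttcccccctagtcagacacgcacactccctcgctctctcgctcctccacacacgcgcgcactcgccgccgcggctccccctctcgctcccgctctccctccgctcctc

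In the Tfrc window, GGTCA begins 234 bases before the start, and the GC content is 64.8%. The Apod window holds TATAAA 33 bases before the start and no GGTCA or TGACC, at 52.4% GC. The P3h3 window, rich in runs of C and T, and the Cdh22 window held none of these motifs, at 55.2% and 75.2% GC. Of the 24 leading genes, 18 matched a promoter of the RefSeq table. Each of them gave 1 promoter, while the shares of all promoters count every promoter of every gene, tested or not. GGTCA or TGACC was in 5 of the 18 (27.8%), 4 of 9 higher and 1 of 9 lower genes, and in 35.4% of all 33469 promoters. The full palindrome, GGTCA and TGACC with 3 bases between them, was in 0 of the 18 and in 0.0239% of all promoters. TGANTCA, bound by AP-1, was in 0 of the 18 and in 6.34% of all, and TATAAA in 1 of the 18 and in 8.06% of all. The first 3 motifs were searched on both strands and may overlap one another. These matches are a description of letters in 250 bases only.

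The SPI and GEN arrays were fitted apart to set their levels side by side. Their differences from CAS share the same 3 CAS arrays, so the agreement of their signs is no separate evidence. For Tfrc the log2 difference from CAS was 0.75 on SPI and 1.10 on GEN, for P3h3 -1.05 and -0.98, for Cdh22 -1.58 and -1.28, and for Rfc3 0.64 and 0.63. Among the 12 higher genes, GEN minus CAS exceeded SPI minus CAS in 8. Among the 12 lower genes, SPI minus CAS was the more negative in 7. A wide gap between SPI and GEN adds to the spread of the pooled fit that chose the genes, so the choice leans against genes with such a gap. The difference between SPI and GEN had an unadjusted p under 0.05 in limma in 2 of the 24, beside 7.95% (757) of all probe sets. They were Apod, at -0.62 for SPI minus GEN with a 95% interval from -0.998 to -0.249 (unadjusted p = 0.00327, adjusted 0.461 in limma), and Fads2, at -0.53 with an interval from -1.04 to -0.02. For P3h3 the interval ran from -0.49 to 0.34, for Tfrc from -0.76 to 0.06 and for Spn from -0.25 to 1.30. Over the 24 genes it reached a median of 0.42 to either side, so SPI and GEN could differ by such amounts in these genes. Between SPI and GEN, limma with adjustment over the 9520 probe sets called 0 (0%), and the lowest adjusted p was 0.132. Leaving out CAS 2, CAS 3, SPI 2 or GEN 5 gave 1 call each, none of a leading gene.

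**Figure D3:**
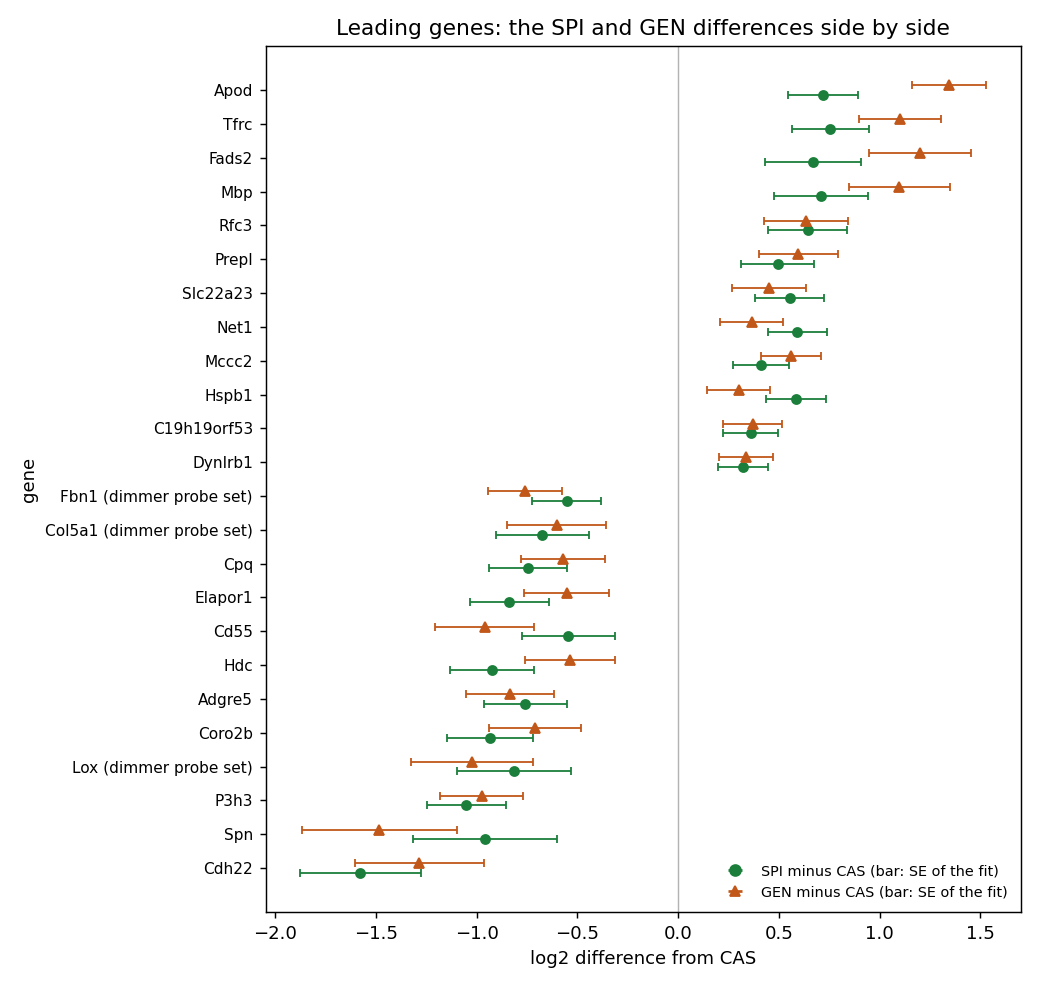
The log2 difference from CAS is plotted for SPI (circles) and for GEN (triangles) in each of the 24 leading genes, with bars of 1 SE of the fit. The symbols of each gene lie on the same side of 0, which the choice of the genes fixed. Apod, at 0.72 on SPI and 1.34 on GEN, shows the clearest gap between the diets, and the symbols of P3h3, Rfc3 and Dynlrb1 nearly coincide.

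Beyond the leading genes, 33 lists of cell type markers and pathways were described by how many tested genes were higher or lower and by their median log2 difference. Over all 7119 genes tested, 3797 (53.3%) were lower and the median was -0.01. Of these genes, 305 had an unadjusted p under 0.05 in limma, and 92 did not overlap. By probe set the lower share was 52.6%. No member of any list passed over all genes, with a smallest adjusted p of 0.185 in limma (P3h3), and 0 were called under any alternative that was run. Medians this close to 0 turn with the scaling: with arrays centred on their median, the cholesterol, fatty acid oxidation, tyrosine kinase, TGF-beta, iron and immediate early lists had medians of 0.01 to 0.03 in place of the values below 0 given here. In RNA of whole gland, fewer cells of a type and less RNA per cell cannot be told apart.

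**Figure D4:**
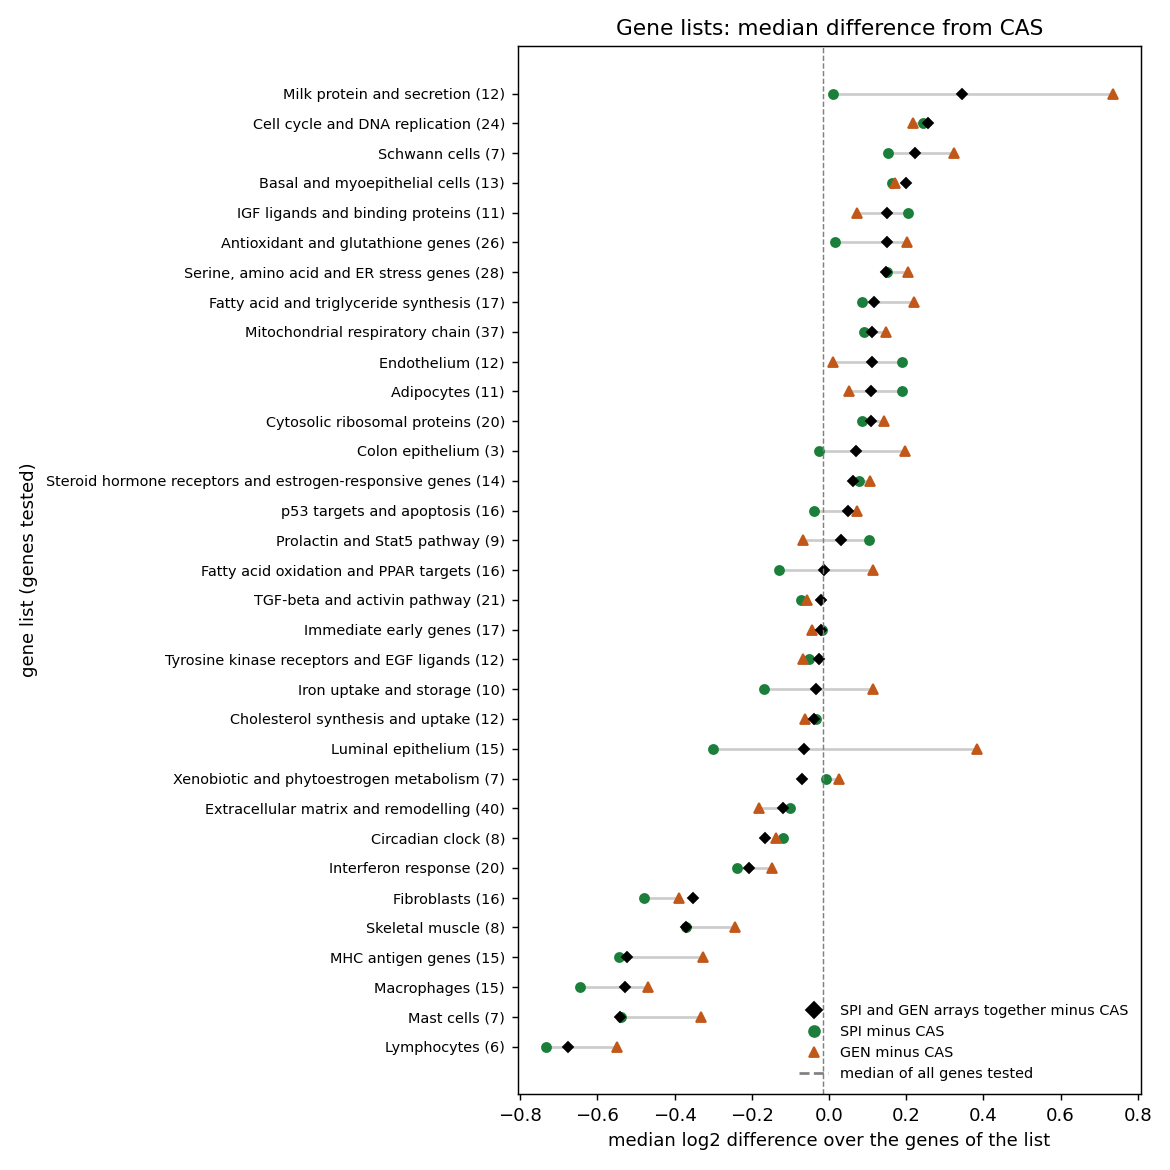
Each row is a gene list with the number of its genes that were tested, and the horizontal axis is the median log2 difference from CAS, for all soy-component arrays (diamonds), SPI (circles) and GEN (triangles). Lymphocyte, mast cell, macrophage and MHC genes lie farthest to the left, at -0.68 to -0.52, milk genes farthest to the right at 0.34, and the dashed line is the median of all genes tested. Milk and luminal genes show the widest gap between SPI and GEN.

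Macrophage genes were lower on the soy-component diets in 15 of 15 tested genes, with a median of -0.53. The median was -0.65 on SPI and -0.47 on GEN. The complement gene C1qa had 2873, 968 and 2533 on CAS, 805, 476, 921 and 1620 on SPI, and 670, 1425 and 809 on GEN. CAS 2 was far under the other CAS arrays, SPI 5 and GEN 3 lay above it and the other 5 soy-component arrays under it, and the difference was -1.11 ± 0.37. The chemokine Ccl6 had 1684, 488 and 2115 on CAS against 247 to 814 on SPI and 275 to 1259 on GEN (-1.34 ± 0.51). C1qc, another chain of complement C1q, stood at -0.996 ± 0.41, the scavenger receptor Stab1 at -0.59 ± 0.26, and the growth factor receptor Csf1r at -0.48. Summed over the list, the signal was 10468 to 25581 on CAS, 8008 to 14982 on SPI and 9075 to 17018 on GEN. The unadjusted p was under 0.05 in limma in 6 of the 15 genes, beside 4.23% of all probe sets. The groups were separated in 0 of the 15, beside 1.19% of all probe sets. The median was -0.47 without CAS 1, -0.88 without CAS 2 and -0.30 without CAS 3, where 12 of 15 were lower.

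Genes that present antigen to T cells were lower in 13 of 15 tested members, with a median of -0.52. The median was -0.54 on SPI and -0.33 on GEN. RT1-Da, a class II chain, had 4243, 1807 and 4277 on CAS, 1912, 1263, 932 and 1983 on SPI, and 1049, 2662 and 1844 on GEN (-1.03 ± 0.33). CAS 1 and CAS 3 were the highest arrays and CAS 2 lay among the soy-component arrays. RT1-Bb, another class II chain, had 2375, 624 and 1682 on CAS, 876, 69.0, 100.4 and 95.9 on SPI, and 339, 874 and 489 on GEN. SPI 3, 4 and 5 were far under every other array, and a second probe set of RT1-Bb stood at 0.28 against -2.37 ± 0.77. RT1-CE16, a class I gene whose probe set can bind related transcripts, had 414, 326 and 527 on CAS, 204, 54.8, 56.1 and 33.9 on SPI, and 211, 279 and 376 on GEN (-1.73 ± 0.65). Again SPI 3, 4 and 5 were the lowest, and the CAS arrays carried RT1-CE16 past the filter on signal. The invariant chain Cd74, which travels with class II molecules, stood at -0.70 ± 0.29, and at -0.42 without CAS 3. The alpha chain RT1-Ba went the other way at 0.73, and the regulator Ciita at 0.06. The summed signal of the list was 31651 to 46380 on CAS, 26882 to 32998 on SPI and 27046 to 38831 on GEN, and its median was -0.69 without CAS 2 and -0.39 without CAS 3. In 7 of the 15 genes, all of them lower, the unadjusted p was under 0.05 in limma, beside 4.23% of all probe sets. The groups were separated in 0 of the 15, beside 1.19% of all probe sets.

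Lymphocyte genes were mostly too dim to test: 17 of 20 were on the array and 6 passed the filter, 4 of them lower, with a median of -0.68. The 4 lower genes are shared by many leukocytes, namely the phosphatase Ptprc (-0.91 ± 0.27), the GTPase Rac2 (-0.82 ± 0.26), the coronin Coro1a (-0.65 ± 0.28, and -0.26 without CAS 3) and Cd74. Ptprc had 385, 216 and 477 on CAS, 209, 179, 109 and 202 on SPI, and 167, 256 and 185 on GEN. CAS 1 and CAS 3 lay above all soy-component arrays and CAS 2 did not. The T cell genes Lck and Cd247 stood at 0.12 and 0.01, and the defining T cell gene Cd3e was dim, with mean signals of 26.9, 41.0 and 60.7 on CAS, SPI and GEN. The list median was -0.95 without CAS 2 and -0.34 without CAS 3.

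Mast cell genes were lower in 6 of 7 tested genes, with a median of -0.54. The tryptase Tpsab1 had 593, 224 and 500 on CAS, 41.6, 103, 48.5 and 489 on SPI, and 110, 494 and 335 on GEN (-1.41 ± 0.74). SPI 2, 3 and 4 and GEN 1 were the low ones, under all CAS arrays, and SPI 5, GEN 3 and GEN 5 lay within the CAS range. The CAS arrays carried Tpsab1 past the filter on signal. The chymase Cma1 stood at -0.41 ± 0.33 and at 0.01 without CAS 1, and the protease Cpa3 at -0.14. Hdc was the only member that separated the groups, beside 1.19% of all probe sets, and the rule that chose it as a leading gene required this. Without CAS 1 the list median was -0.14. Interferon response genes were lower in 15 of 20 (median -0.21, and -0.13 without CAS 3). The transcription factor Irf7 had 2610, 1658 and 2648 on CAS against 1110 to 1644 on SPI and 1776 to 2154 on GEN (-0.49 ± 0.20), with the SPI arrays all under the CAS arrays. The antiviral gene Mx1 stood at -0.48 ± 0.25 and at -0.13 without CAS 3.

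Fibroblast genes were lower in 14 of 16 tested genes, with a median of -0.35. Pi16, a surface protein of adventitial fibroblasts, had 1433, 849 and 714 on CAS, 350, 296, 336 and 858 on SPI, and 360, 402 and 321 on GEN. SPI 5 lay among the CAS arrays and all the others were under them, and the difference was -1.29 ± 0.29 (adjusted p = 0.589). Cd248, a stromal and pericyte protein, had 3665, 1068 and 1802 on CAS against 519 to 1287 on SPI and 659 to 909 on GEN (-1.19 ± 0.33), and stood at -0.73 without CAS 1. Mfap5, of the microfibrils, stood at -1.22 ± 0.45 and at -0.72 without CAS 1. Clec3b, a plasminogen-binding lectin, had 182, 389 and 453 on CAS, 190, 103, 201 and 101 on SPI, and 218, 161 and 223 on GEN (-0.96 ± 0.33). Here CAS 1 was the low CAS array. The defining genes Dcn and Lum, proteoglycans of collagen fibrils, stood at -0.43 and -0.28, and the filament gene Vim at 0.27. The list median was -0.69 without CAS 2 and -0.11 without CAS 1.

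Extracellular matrix and remodelling genes were lower in 27 of 40 tested genes, with a median of -0.12. The unadjusted p was under 0.05 in limma for 9 of them, 8 lower, beside 4.23% of all probe sets. Only P3h3 separated the groups, beside 1.19% of all probe sets. Fndc1, a fibronectin-domain protein, had 2502, 510 and 1012 on CAS, 390, 294, 387 and 503 on SPI, and 473, 521 and 502 on GEN. CAS 1 was far above and CAS 2 was level with the highest soy-component arrays, and the difference of -1.34 ± 0.35 became -0.74 without CAS 1. Col5a3, a chain of type V collagen, had 788, 836 and 581 on CAS, 394, 359, 582 and 507 on SPI, and 447, 154 and 343 on GEN (-0.97 ± 0.31). Only SPI 4 reached the lowest CAS array. The fibronectin gene Fn1 stood at -0.54 ± 0.21, and at -0.24 without CAS 1. The main fibrillar collagens Col1a1, Col1a2 and Col3a1 stood at -0.44, -0.39 and -0.18. The basement membrane collagens Col4a1 and Col4a2 stood at 0.05 each, and Plod2, a lysyl hydroxylase, at 0.39. The list median was -0.02 without CAS 1 and -0.20 without CAS 3.

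Skeletal muscle genes were lower in 6 of 8 tested genes, with a median of -0.37, and -0.07 without CAS 1. The summed signal of the muscle list was 4436 to 7985 on CAS, 4583 to 5469 on SPI and 4379 to 4642 on GEN. Muscle actin Acta1 had 1731, 139 and 259 on CAS, 101, 32.3, 100.3 and 204 on SPI, and 246, 157 and 308 on GEN. Only CAS 1 stood out, and the difference of -1.56 became -0.50 without it. The CAS arrays carried Acta1 past the filter on signal. The creatine kinase Ckm stood at -0.74 ± 0.46 and at 0.13 without CAS 1. CAS 1 was also the highest array for the fibroblast and matrix lists and for the mast cell list, and the part of muscle in those values was not tested beyond leaving out that array. TGF-beta and activin genes were lower in 13 of 21, with a median of -0.02, 0.038 without CAS 1 and -0.15 without CAS 3. The activin receptor Acvr2a had 311, 344 and 434 on CAS, 306, 319, 325 and 277 on SPI, and 182, 152 and 172 on GEN. Only the GEN arrays were set apart, so the pooled value of -0.60 ± 0.26 joins -0.23 on SPI and -1.10 on GEN (unadjusted p = 0.00021 between them in limma). The inhibin chain Inhbb stood at -0.43 ± 0.19.

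Among the 8 lists plotted by array, only the nerve genes had means that separated the groups. The mean log2 signal of 7 Schwann cell genes was 8.77 to 8.82 on CAS, 8.94 to 9.13 on SPI and 9.11 to 9.24 on GEN. The summed signal of the same genes overlapped, at 7003 to 9096 on CAS, 8598 to 10141 on SPI and 8608 to 8667 on GEN. Of the 7 genes, 5 were higher, with a median of 0.22, which was 0.12 without CAS 1 and 0.39 without CAS 3. Besides Mbp, the sodium channel Scn7a of glia had 258, 551 and 272 on CAS, 579, 844, 659 and 425 on SPI, and 764, 694 and 755 on GEN (0.97 ± 0.24, adjusted p = 0.937). CAS 2 lay above SPI 5, and the other arrays were separated. Periaxin, Prx, stood at 0.26 ± 0.18, and at 0.11 without CAS 1, and Mag, a myelin adhesion protein, at 0.22 ± 0.22, and at -0.04 without CAS 2. Pmp22 stood at 0.06, the calcium-binding S100b at 0.00 and the myelin enzyme Cnp at -0.18. The defining gene Sox10 was dim.

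**Figure D5:**
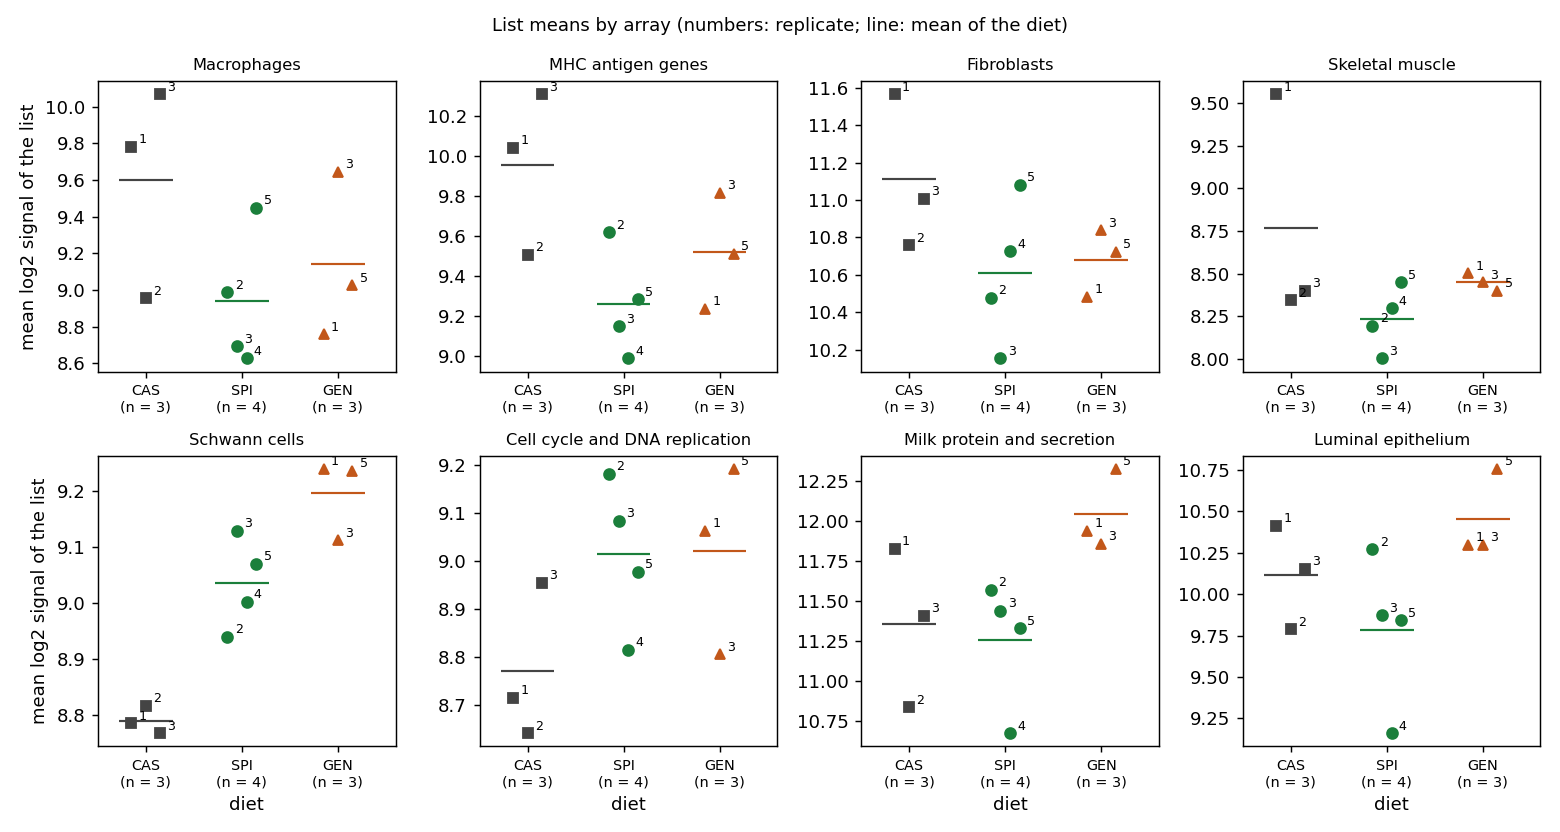
The mean log2 signal of 8 lists is plotted for each array by diet (squares CAS, n = 3, circles SPI, n = 4, triangles GEN, n = 3), with the replicate number beside each point and a line at the mean of the diet. CAS 2 lies below the other CAS arrays in the macrophage, MHC and fibroblast panels, CAS 1 lies alone at 9.55 in the skeletal muscle panel, and only in the Schwann cell panel are all soy-component arrays above all CAS arrays. SPI 4 is the lowest array in the milk and luminal panels.

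Vessel and fat genes had medians closer to that of all genes. Endothelial genes were higher in 10 of 12, with a median of 0.11, which was 0.19 on SPI and 0.01 on GEN, -0.01 without CAS 1 and 0.24 without CAS 2. The claudin Cldn5 was the highest of the list at 0.32 ± 0.20, and the lowest member stood at -0.11. Cldn5 stood at 0.53 on SPI and 0.03 on GEN, and its pooled value was 0.19 without CAS 1. Adipocyte genes were higher in 8 of 11, with a median of 0.11, which was 0.02 without CAS 1, with 6 of 11 higher, and 0.29 without CAS 2. The fatty acid binding protein Fabp4 had 10206, 14831 and 12186 on CAS against 12584 to 16003 on SPI and 13926 to 14538 on GEN (0.24 ± 0.11, and 0.11 without CAS 1), and the adipokine Cfd had 2797, 1137 and 2257 on CAS against 756 to 2152 on SPI and 541 to 1784 on GEN (-0.87 ± 0.38). Cfd was thus the lowest of the fat genes and Sncg, a synuclein of adipocytes, the highest at 0.59 ± 0.23, and at 0.39 without CAS 3.

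Cell cycle and replication genes were higher in 22 of 24 tested genes, with a median of 0.26. The median was 0.24 on SPI and 0.22 on GEN. Stmn1, which breaks down microtubules, had 1986, 1847 and 2390 on CAS, 2759, 3474, 2813 and 2640 on SPI, and 2875, 2212 and 3625 on GEN. GEN 3 was the only soy-component array under CAS 3, and the difference was 0.48 ± 0.15. The mitotic cyclin Ccnb2 stood at 0.45 ± 0.19 (0.27 without CAS 2), the replication clamp Pcna at 0.28 ± 0.12 and the proliferation antigen Mki67 at 0.26. Rfc3 was the only gene of the list that separated the groups, beside 1.19% of all probe sets. An unadjusted p under 0.05 in limma was found for 4 of 24, beside 4.23% of all probe sets. The list mean was 8.64 to 8.95 on CAS, 8.81 to 9.18 on SPI and 8.81 to 9.19 on GEN, so the arrays overlapped. The summed signal of the list, which its brightest genes set, did not, at 16607 to 18905 on CAS, 19752 to 22396 on SPI and 20127 to 24098 on GEN. The median was 0.14 without CAS 2 and 0.38 without CAS 3. Of 16 genes of p53 and apoptosis, 8 were higher and 8 lower (median 0.05, 0.09 without CAS 1 and -0.0065 without CAS 2), among them the inhibitor of the cell cycle Cdkn1a at 0.83 ± 0.34 and Rprm at -0.90 ± 0.36. Rprm was at -1.33 on SPI and -0.32 on GEN.

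In the epithelium and its milk genes, the pooled values joined unlike diets. Luminal genes were lower in 8 of 15, with a median of -0.06 that joined -0.30 on SPI and 0.38 on GEN, and was 0.11 without CAS 1 and -0.24 without CAS 2. Milk and secretion genes were higher in 10 of 12, with a median of 0.34 that joined 0.01 on SPI and 0.74 on GEN, and was 0.04 without CAS 2. Between SPI and GEN the unadjusted p was under 0.05 in 8 of the 15 luminal and 7 of the 12 milk genes, beside 7.95% of all probe sets. Wap, the whey acidic protein, had 1489, 894 and 1424 on CAS, 1079, 1112, 574 and 612 on SPI, and 3586, 2027 and 5212 on GEN. The GEN arrays were all above CAS, and SPI 4 and SPI 5 were under it, so the pooled difference was 0.26 ± 0.58. The casein Csn1s1 stood at 0.49 ± 0.28 and at 0.17 without CAS 2. The fat globule gene Mfge8 was alike on both diets, at 0.34 on SPI and 0.37 on GEN, and had 3596, 3809 and 3952 on CAS against 4345 to 5034 on SPI and 3915 to 6192 on GEN. Only GEN 3 fell within the CAS range. SPI 4, with the highest actin ratio, had the lowest milk and luminal means, and GEN 5, with the lowest ratio, the highest. SPI 5 and GEN 1 did not follow that order. SPI 5, at a ratio of 2.94, had milk and luminal means of 11.33 and 9.84, and GEN 1, at 5.15, had 11.94 and 10.30. With the actin ratio as a covariate in the pooled comparison with CAS, the milk median was 0.31 and the luminal median -0.10. SPI against GEN was not fitted with that covariate. The part of RNA quality in the pooled values was not tested beyond that fit, and its part in the gap between SPI and GEN was not tested. Basal genes were higher in 10 of 13, with a median of 0.20, and 0.12 without CAS 3. The members ran from -0.13 to 0.96, and 3 of the 13 were lower. The keratin Krt15 was the highest of them at 0.96 ± 0.47, with 0.56 on SPI and 1.49 on GEN. Krt5 stood at 0.43 ± 0.33, with 0.08 on SPI and 0.91 on GEN.

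Steroid receptors lay under the filter on signal, and genes known to respond to estrogen showed no common direction. Esr1, the main estrogen receptor, had signals of 9.5 to 12.6 on CAS and 12.8 to 16.1 on the soy-component arrays, Esr2 had 4.7 to 10.9 and 3.4 to 26.7, and the progesterone receptor Pgr had 94.1 to 186 and 86.6 to 149. All 3 lay under the filter and were not tested. Of 14 tested genes of the list, 8 were higher and 6 lower, with a median of 0.06, and 0.013 without CAS 2. Hspb1 was the only one that separated the groups, beside 1.19% of all probe sets, and the rule that chose it as a leading gene required this. The trefoil peptide Tff1 stood at -0.40 ± 0.25 (-0.26 without GEN 1), the growth factor Igf1 at -0.28 ± 0.18, its binding protein Igfbp4 at 0.34 ± 0.20, the EGF ligand Areg at 0.06 and Ccnd1, the cyclin of G1, at -0.03. Prolactin and Stat5 genes were higher in 5 of 9 (median 0.03, -0.021 without CAS 3 and 0.11 without CAS 2). The prolactin receptor Prlr had 2461, 2512 and 3475 on CAS, 3325, 1833, 1357 and 921 on SPI, and 1835, 1960 and 2359 on GEN (-0.62 ± 0.29). SPI 2 lay within the CAS range, and the other soy-component arrays were under all CAS arrays. IGF genes were higher in 7 of 11 (median 0.15, and 0.024 without CAS 3), with Igf2 at 0.39 ± 0.23, and at 0.25 without SPI 5. Tyrosine kinase receptors and EGF ligands were higher in 5 of 12 (median -0.03, 0.027 without CAS 1 and -0.09 without CAS 3), with Fgfr2 at -0.34 ± 0.18.

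Lists of metabolism had medians near that of all genes, with single genes apart. Fabp3, a fatty acid binding protein of muscle and mammary epithelium, had 769, 296 and 313 on CAS, 1562, 1695, 669 and 1192 on SPI, and 1679, 1174 and 2503 on GEN. Only SPI 4 fell within the CAS range, and the difference of 1.75 ± 0.36 (adjusted p = 0.457) was the largest of any higher gene named by the rule. The rest of its list, fatty acid oxidation and PPAR targets, was split, with 7 of 16 higher and a median of -0.01, and 0.07 without CAS 1. Phgdh, which opens serine synthesis, had 195, 142 and 45.0 on CAS, 355, 165, 123 and 217 on SPI, and 292, 337 and 292 on GEN. CAS 3 was the lowest by far, and the difference of 1.15 ± 0.42 became 0.52 without it. The soy-component arrays carried Phgdh past the filter on signal. Of 28 genes of serine and amino acid metabolism and ER stress, 22 were higher (median 0.15), and 18 without CAS 3 (median 0.10). Psat1, the next enzyme of serine synthesis, stood at 0.49 ± 0.21, and at 0.28 without CAS 2. The chaperone Calr stood at 0.18 ± 0.10 and was the only gene of the 28 that separated the groups, beside 1.19% of all probe sets.

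Of 17 genes that make fatty acids and triglycerides, 9 were higher (median 0.12, and 0.025 without CAS 2), led by Fads2 and by Thrsp, a nuclear protein of lipogenesis. Thrsp had 913, 512 and 627 on CAS, 1408, 969, 573 and 1034 on SPI, and 958, 1208 and 1349 on GEN (0.64 ± 0.25), and its other probe sets stood at 0.78 and 0.44. SPI 4 was the only soy-component array under CAS 1. Cholesterol genes were higher in 4 of 12 (median -0.04, and -0.10 without CAS 2). Insig1, a sensor of sterol levels, stood at -0.20 ± 0.25, at -0.031 without CAS 1 and at -0.44 without CAS 3. Antioxidant and glutathione genes were higher in 18 of 26 (median 0.15, and 0.04 without CAS 3). The microsomal glutathione transferase Mgst1 stood at 0.49 ± 0.23 and the plasma glutathione peroxidase Gpx3 at -0.43 ± 0.22, and at -0.17 without CAS 1. Genes that metabolise foreign compounds and phytoestrogens were higher in 3 of 7 (median -0.07, -0.18 without CAS 1 and 0.10 without CAS 2). Ahr, the receptor for aryl hydrocarbons, had 193, 184 and 203 on CAS, 170, 127, 152 and 151 on SPI, and 183, 163 and 128 on GEN. The arrays did not overlap, as in 1.19% of all probe sets, but CAS 2 and GEN 1 nearly met. The difference was -0.34 ± 0.18, and a dim second probe set of Ahr stood at -0.06. The CAS arrays carried Ahr past the filter on signal. The epoxide hydrolase Ephx1 stood at 0.37 ± 0.19, and at 0.20 without CAS 1.

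The genes of large protein machines differed by small amounts, and their counts varied with the scaling of the arrays. Cytosolic ribosomal protein genes were higher in 19 of 20 (median 0.11) and respiratory chain genes in 34 of 37 (median 0.11, 0.07 without CAS 2 and 0.17 without CAS 3), both with 0 called. With quantile normalization 16 of 20 ribosomal genes were higher (median 0.04) and 30 of 37 respiratory genes (median 0.10). Rps29 had 23303, 21026 and 22196 on CAS, 27369, 23465, 26328 and 25077 on SPI, and 24733, 31197 and 25394 on GEN (0.24 ± 0.09). It was the only ribosomal gene of the 20 that separated the groups, beside 1.19% of all probe sets. Ndufb8, a subunit of complex I, stood at 0.88 ± 0.34, and at 0.37 without CAS 3, where it had 83.3 against 278 and 214 on the other CAS arrays. Circadian clock genes were lower in 6 of 8 (median -0.17, and -0.06 without CAS 2). The clock repressor Nr1d2 stood at -0.35 ± 0.21, and at -0.19 without CAS 2. A second tested probe set of Nr1d2 stood at -0.08, and a dim one at -0.43. The activator Bmal1 stood at -0.32 ± 0.23, at -0.19 without SPI 4, and at -0.56 on SPI and -0.01 on GEN. Immediate early genes were higher in 8 of 17 (median -0.02, -0.11 without SPI 2 and 0.018 without GEN 5). The transcription factor Klf4 had 7903, 6101 and 5436 on CAS, 4482, 4475, 5729 and 5079 on SPI, and 5132, 4910 and 4251 on GEN (-0.40 ± 0.13, and -0.25 without CAS 1), where SPI 4 alone lay above the lowest CAS array.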

How the data were processed

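Pooled rat mammary gland RNA was hybridised to 10 Affymetrix RAE230 arrays. The authors deposited linear intensity values, 1 for each probe set and array, in a single table. The submitters' processing notes name MAS5 (version not given in the sources used here). Deposited intensity values look globally scaled: the mean after trimming 2% at each end was 500.1 on every array. Of 15923 probe sets, 57 controls were left out. Values under 1 (0.0637%) were set to 1, log2 was taken, and the lowest 40% by mean log2 signal were dropped, leaving 9520, with a lowest geometric mean of 162. Symbols came from the platform annotation: of 15866 probe sets, 12783 had 1 symbol, 312 several and 2771 none, and a gene was read from its brightest tested probe set.

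Differences were tested with limma 3.58.1 in R 4.3.3 (lmFit, eBayes with an intensity trend). SPI and GEN arrays together were set against CAS, with 8 residual degrees of freedom, and SPI against GEN in a fit of 3 diets, with 7. Benjamini-Hochberg adjustment ran over 9520 probe sets, with a call at an adjusted p under 0.05. Precision is limited by how few arrays there are: the median 95% interval reached 0.375 log2 units to either side. Errors are standard errors of the fit. The model was tested on simulated data.

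The rule named the 12 highest and 12 lowest passing genes, filled up with genes at an unadjusted p under 0.01 whose arrays did not overlap, up to 4 members of each list by smallest p, and Esr1, Esr2 and Pgr. Some items are not reported here. Other genes were named after their values were seen. The comparison, lists and rule were chosen with earlier results of these data known. Alternatives were a fit of 3 diets, no filter on dim probe sets, quantile normalization, centring on the median, a floor of 64, eBayes without trend, a replicate block, the actin ratio as a covariate and leaving out each array. No column of another series was in the table.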

Additional observations from a re-analysis of the deposited data

Results flagged for a closer look

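In 366 groups of SPI or soy-component arrays looked at, over the named genes, the list means and the RNA quality ratios, 23 held an array whose gap to the others passed the 95% limit for a stray value. Chance flags about 1 in 20. None of the causes was tested.

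SPI 4 was the stray array most often. Its GAPDH 3'/5' ratio was 2.91, against 1.18 to 1.89 on the other soy-component arrays. In log2 signal, SPI 4 was low for the leukocyte gene Spn among the SPI arrays (7.025 against 7.56 to 7.65) and for the lipid droplet gene Plin2 (11.8 against 12.07 to 12.13). Among the 7 soy-component arrays it was low for Krt15 (8.139 against 9.84 to 11.02), Csn1s1 (13.27 against 14.21 to 14.69) and Thrsp (9.163 against 9.90 to 10.46), and for the mean of the prolactin and Stat5 list (9.285 against 9.63 to 9.86). It was high for the ER stress gene Herpud1, at 11.05 against 10.01 to 10.19 on the other SPI arrays and 10.01 to 10.37 on the other soy-component arrays.

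SPI 2 was high for the class II gene RT1-Bb (9.774 against 6.11 to 6.65 on the other SPI arrays), for Hsd17b4 of steroid and fatty acid metabolism (10.09 against 9.84 to 9.87 on SPI and 9.84 to 9.93 on the soy-component arrays) and for Jun (13.24 against 12.56 to 12.84). It was low for Insig1 (9.906 against 11.03 to 11.11 on SPI), for the thioredoxin reductase Txnrd1 (10.51 against 10.95 to 11.18) and for the mean of the IGF list (10.37 against 10.59 to 10.72).

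SPI 5 was high for Pi16, at 9.744 against 8.21 to 8.45 on SPI and 8.21 to 8.65 on the soy-component arrays, and low for the squalene synthase Fdft1, at 7.998 against 8.36 to 8.43 on SPI and 8.34 to 8.45 on the soy-component arrays. SPI 3 was low for Steap3 (7.211 against 7.83 to 8.29). GEN 1 was low for Tff1 (6.739 against 7.49 to 8.04) and GEN 3 for Col5a3 (7.267 against 8.42 to 9.18).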

How the results depend on the processing

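The count of 0 adjusted calls between the soy-component diets and CAS held under every alternative run, leaving out each array included, with a smallest adjusted p of 0.0537 to 0.389. The 403 probe sets at an unadjusted p under 0.05 became 674 without the filter on signal and 327 (without CAS 3) to 619 (without CAS 2) when 1 array was left out. With arrays centred on their median, 59.7% of these were higher against 34.2%, so the balance of directions depended on the scaling. Between SPI and GEN, 0 to 1 adjusted calls arose without 1 array: Il17b without CAS 2, RT1-CE16 without SPI 2, Rpl37a without GEN 5 and an unnamed probe set without CAS 3. The 757 at an unadjusted p under 0.05 became 1213 without that filter and 487 (without GEN 5) to 1091 without 1 array. Same-numbered arrays of different diets correlated at -0.183 to 0.155 in their deviations, over 0.1 in 1 of 6 pairs. The pairs are few and the deviations are centred within each diet, so this check cannot settle whether the numbers pair the arrays. With the replicate block, soy-component diets against CAS had 386 at an unadjusted p under 0.05 and SPI against GEN had 286. Among the named genes, 7 turned sign when 1 CAS array was left out. Leaving out 1 array, the difference ran from -0.69 to 0.013 for Cma1 and from -1.19 to 0.13 for Ckm, above 0 without CAS 1. It ran from -0.042 to 0.39 for Mag, -0.13 to 0.94 for Mvk and -0.048 to 0.42 for Bmp7, below 0 without CAS 2. It ran from -0.51 to 0.0076 for Msmo1 and -0.029 to 0.61 for Hbegf, the signs turning without CAS 3. The cause was not tested. The counts of lower list members without each CAS array and with the actin ratio were added after seeing the data: macrophage genes were lower in 14, 15 and 12 of 15 without CAS 1, 2 and 3, and in 15 with the ratio. Signals near the filter have uncertain sizes. The filter took the mean over all arrays, so a gene can pass it through 1 group alone. Of the genes given array by array, Spn, Tpsab1, RT1-CE16, Acta1 and Ahr had geometric means under its limit on the soy-component arrays. Fads2 and Phgdh had such means on CAS. The directions of these genes are thus tied to the filter in part.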

Other observations

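Some genes named by the rule were split by diet or by array in ways that the pooled comparison does not show. The ribosomal protein gene Rpl37a had 24590, 20488 and 20009 on CAS, 12456, 9422, 12234 and 10563 on SPI, and 25036, 25145 and 12784 on GEN. GEN 5 lay with the SPI arrays and the other GEN arrays with CAS, and no array was between. The growth factor Bmp4 had 881, 883 and 1043 on CAS, 1052, 994, 796 and 1036 on SPI, and 659, 671 and 611 on GEN, with the GEN arrays alone under all others.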
